A study of Mus musculus with 27 samples.

Results

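The 10 genes described here encode the kinases that carry the signal from the LPS receptor TLR4 to NF-κB and the interferon regulatory factors, together with the adaptor that recruits the first of them. They were picked by gene symbol, with earlier results of these data known. They are *Myd88*, *Irak1*, *Irak2*, *Irak3*, *Irak4*, *Map3k7*, *Chuk*, *Ikbkb*, *Ikbke* and *Tbk1*. All 10 were found among the 45070 genes of the table, and all 10 were among the 13901 genes with enough signal to be tested (10 or more normalised read counts in 3 or more samples). The cells were bone marrow-derived macrophages (BMDMs), primary cells grown from the marrow of wild type male C57/BL6 mice aged 6 to 8 weeks, and every sample was kept with DMSO, the vehicle of the inhibitors used elsewhere in the study, for 1 h. Of 27 samples, 3 were then left untreated, 12 received lipopolysaccharide (LPS) and 12 received interleukin-4 (IL-4). The dose of either was 10 ng/ml and the time 0.5, 1, 2 or 4 h, with 3 replicates in each of the 9 groups. Chromatin-associated RNA, a fraction rich in transcripts still being made, was sequenced in order to find kinases whose transcription follows either stimulus. BMDMs are a culture and not a tissue macrophage, nothing in the labels says whether the replicates came from separate mice, and p-values therefore measure the spread between these samples only.

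In the textbook account of the pathway, ligand-bound TLR4 assembles MYD88 with the kinase IRAK4, which activates IRAK1 and IRAK2, whereas IRAK3 (IRAK-M) lacks normal kinase activity and restrains the complex. TAK1, the product of *Map3k7*, is switched on downstream and activates the IKK complex, whose catalytic subunits are IKKα (*Chuk*) and IKKβ (*Ikbkb*) and which marks the IκB inhibitors for destruction so that NF-κB can enter the nucleus. TBK1 and its relative IKKε (*Ikbke*) act on a parallel branch and phosphorylate interferon regulatory factors. IL-4 signals by another route, through JAK kinases and STAT6.

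The sum of normalised read counts lay between 3571492 and 4058199 in the 12 LPS samples, and the 15 other samples ranged from 2469768 to 2790981. These sums reflect the authors' scaling on invariant genes and are not sequencing depths, which are unknown here, so the precision of low values rests on the replicate spread alone. The scaling matters for small LPS changes. The median change of all tested genes was −0.25, −0.31, −0.29 and −0.26 on the log2 scale at the 4 successive LPS times, and it moved up by 0.22 to 0.25 when libraries were rescaled by median-of-ratios factors and down by 0.49 to 0.63 when they were set to equal totals. All 10 macrophage markers examined were expressed, with a summed level of 11552 to 29614 over the samples. *Ly6g*, *Xcr1*, *Cd3e*, *Cd3g*, *Hba-a1* and *Hbb-bs*, which mark neutrophils, dendritic cells, T cells and red cells, were at 0 in every library. The 7 neutrophil and progenitor markers summed to 3 to 10 in untreated and 3 to 91 in LPS samples, the 4 dendritic markers to 6 to 9 and 5 to 98, and the 5 stromal markers to 37 to 89 and 33 to 218. In IL-4 samples these sums were 3 to 38, 11 to 24 and 28 to 209, so every IL-4 sample exceeded the untreated ones in the dendritic sum. The part of these cells in the results below was not tested.

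Promoter windows were available for 9 of the 10 members in the RefSeq-based table (GRCm38.p6, from 250 bases before to 50 bases after the annotated start). The windows of the 3 genes that rose most under LPS, of *Irak4*, which fell most, and of *Map3k7*, which moved little, are shown in lower case, 5′ to 3′ on the strand of the gene, because these genes span the range of the response. Capitals mark the letters of an NF-κB motif, an interferon-stimulated response element (ISRE, GAAANNGAAA) or an AP-1-like pattern (TGANTCA, any middle base), each searched on both strands.
Ikbke: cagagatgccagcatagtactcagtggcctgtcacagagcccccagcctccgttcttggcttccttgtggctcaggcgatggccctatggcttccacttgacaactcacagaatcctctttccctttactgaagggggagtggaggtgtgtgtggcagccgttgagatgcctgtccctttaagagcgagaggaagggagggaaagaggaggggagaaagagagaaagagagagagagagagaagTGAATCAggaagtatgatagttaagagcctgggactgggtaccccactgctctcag
Myd88: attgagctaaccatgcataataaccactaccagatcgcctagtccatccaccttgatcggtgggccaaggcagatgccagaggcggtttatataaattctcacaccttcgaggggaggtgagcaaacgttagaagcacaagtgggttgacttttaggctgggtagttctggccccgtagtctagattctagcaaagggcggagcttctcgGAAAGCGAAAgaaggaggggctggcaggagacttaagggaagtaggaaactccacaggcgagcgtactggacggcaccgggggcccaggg
Irak2: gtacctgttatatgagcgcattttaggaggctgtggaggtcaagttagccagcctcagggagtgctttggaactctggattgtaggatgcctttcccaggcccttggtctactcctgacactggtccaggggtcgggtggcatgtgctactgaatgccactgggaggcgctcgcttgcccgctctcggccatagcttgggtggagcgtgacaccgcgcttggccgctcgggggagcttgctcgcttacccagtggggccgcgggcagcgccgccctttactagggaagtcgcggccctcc
Irak4: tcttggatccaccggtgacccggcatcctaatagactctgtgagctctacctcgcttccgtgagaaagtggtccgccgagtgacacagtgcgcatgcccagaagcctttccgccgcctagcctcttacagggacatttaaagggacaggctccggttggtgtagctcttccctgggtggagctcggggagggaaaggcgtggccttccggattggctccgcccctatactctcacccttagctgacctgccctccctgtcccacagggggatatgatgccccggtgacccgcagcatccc
Map3k7: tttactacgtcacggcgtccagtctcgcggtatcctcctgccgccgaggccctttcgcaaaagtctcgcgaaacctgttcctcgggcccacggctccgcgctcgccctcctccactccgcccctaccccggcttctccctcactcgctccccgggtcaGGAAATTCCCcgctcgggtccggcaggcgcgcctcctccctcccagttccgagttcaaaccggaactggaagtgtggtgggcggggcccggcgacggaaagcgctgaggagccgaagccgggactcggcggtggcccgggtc
The windows lie at chr1:131279514-131279813 (minus strand), chr9:119339969-119340268 (minus strand), chr6:113638217-113638516 (plus strand), chr15:94543410-94543709 (plus strand) and chr4:31963857-31964156 (plus strand). The *Ikbke* window held a match to TGANTCA, with A as its middle base, starting 6 bases before the transcription start. This pattern, looser than a fixed motif, was found in 7.81% of all 32851 promoter windows. The *Myd88* window held an ISRE match starting 40 bases before the start (3.44% of all windows) and, overlapping it, a STAT match with a 3-base spacer, TTCNNNGAA, starting 46 bases before the start (8.3% of all windows). The NF-κB match in the *Map3k7* window began 92 bases before the start, and 8.46% of all windows held this motif. Another NF-κB match lay in the *Irak1* window, and *Chuk* held a STAT match with a 3-base spacer. No match to these motifs or to the STAT6 motif with a 4-base spacer (6.95% of all windows) was found in the windows of *Irak2*, *Irak3*, *Irak4* or *Tbk1*. A match is a run of letters and says nothing about binding in these cells.

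**Figure D1:**
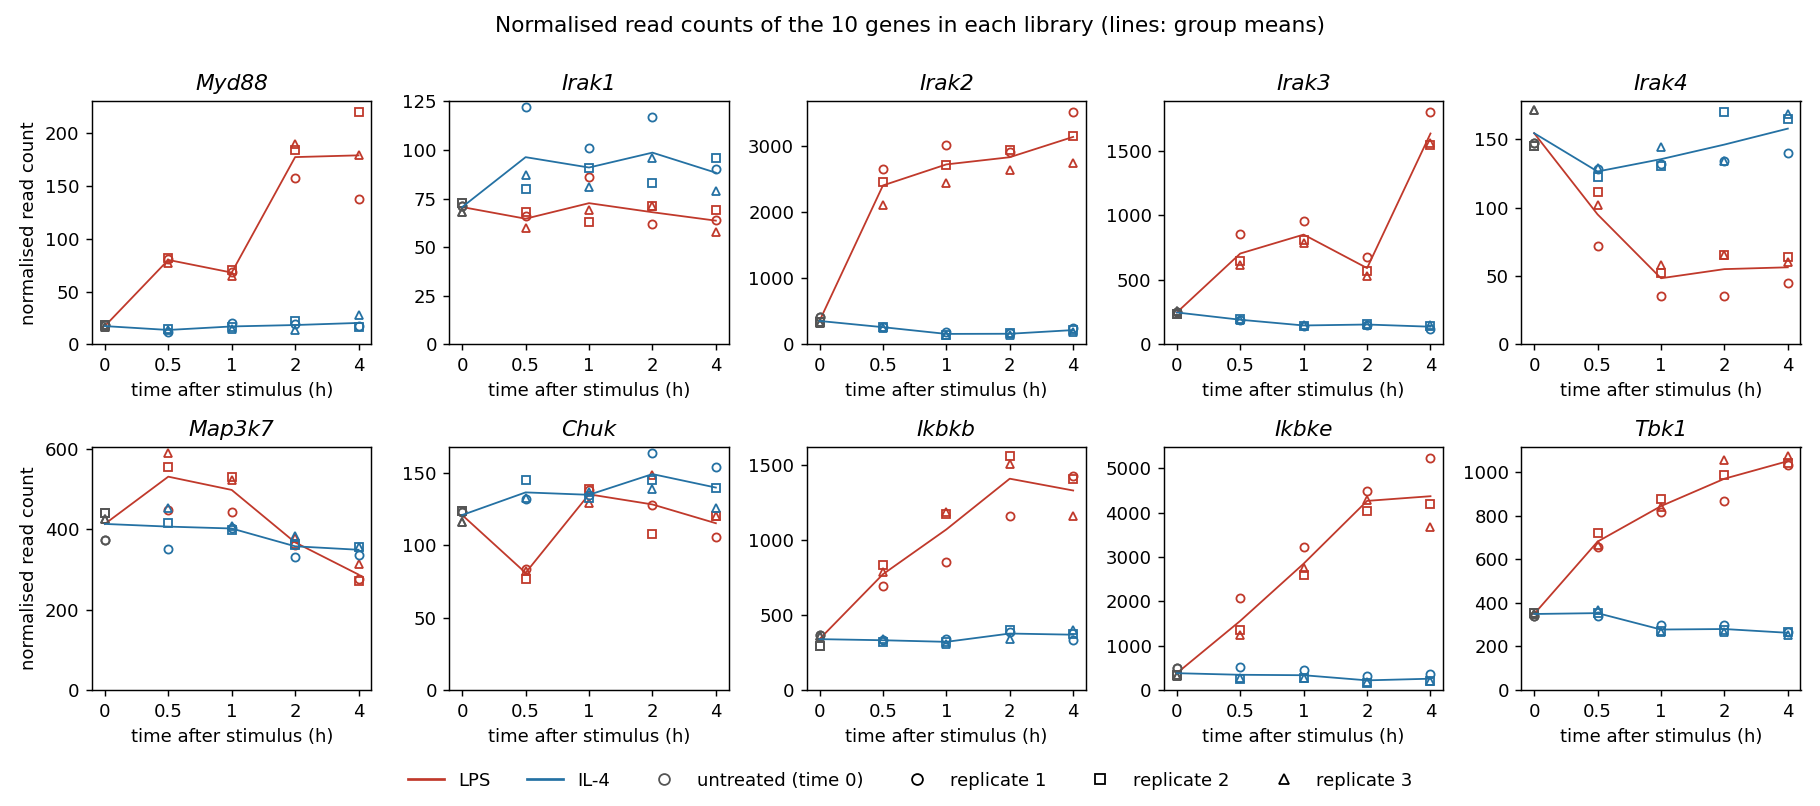
Normalised read counts of the 10 genes (y axes, from 0) against time after the stimulus in hours (x axes), with each symbol a library, red for LPS, blue for IL-4, grey for untreated, and lines through group means of 3 replicates. *Ikbke*, *Irak2*, *Myd88*, *Irak3*, *Ikbkb* and *Tbk1* rise under LPS with no overlap with untreated libraries, *Irak4* falls, and *Irak1* stays between 58 and 86 in every LPS library.

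LPS raised 6 of the 10 genes at every time examined: the adaptor *Myd88*, the kinases *Irak2*, *Ikbkb*, *Ikbke* and *Tbk1*, and the inhibitory *Irak3*. It lowered *Irak4* at every time. *Map3k7* and *Chuk* moved by little, in directions that depended on the time and on the scaling. *Irak1* had no detectable change as scaled by the authors. Over the whole course 9 of 10 passed the moderated F test of limma at an adjusted p of 0.05, against 87.6% of all tested genes, so the number of members called was near the background. In direction the members differed more from the background: 6 of 10 had a rise as their largest change, where 32.9% of all tested genes rose and 54.7% fell. The median of the largest changes was 1.82 over the members and −1.0 over all tested genes. The contrast was smaller against the 6827 genes with a mean of at least 50, which include all 10 members. Of these genes 2871 rose and 3633 fell, with a median of −0.67. No test of these differences was made. The members were chosen with earlier results of these data known, so the contrast is a description only. The same holds for the partner lists below. The 6 rises kept their direction and their call under both rescalings. In bulk RNA a change in the share of cells that express a gene and a change of RNA per cell cannot be told apart.

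*Ikbke*, the inducible kinase related to TBK1, had the largest rise of the set. Its normalised read counts were 497, 328 and 308 in untreated replicates 1, 2 and 3. They reached 2071, 1360 and 1239 at LPS 0.5 h, 3216, 2584 and 2744 after 1 h, 4484, 4027 and 4276 after 2 h, and 5233, 4198 and 3673 after 4 h. Every LPS library lay above every untreated library, and only the 2 h and 4 h groups overlapped. The log2 change was 2.04 ± 0.20 at 0.5 h (SE, n = 3, adjusted p = 7.61e-07) and 3.55 ± 0.20 at 4 h (adjusted p = 5.07e-10). Replicate 1 had the highest *Ikbke* value in 9 of 9 groups, 0.41 above the group mean on the log2 scale on average, yet the rise at 4 h within replicates was alike, at 3.39, 3.67 and 3.57. The gene lies on chromosome 1 (131254602 to 131279563, minus strand, GRCm38), and 50.6% of its span is shared with the non-coding *Gm28913* and 16% with *Gm51644*, both on the opposite strand. *Gm28913* changed by 3.38 and *Gm51644* by 2.01 at LPS 4 h. Whether reads were counted by strand is not stated, so the reads of *Ikbke* and these transcripts cannot be told apart.

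*Tbk1*, the constitutive relative of IKKε that phosphorylates IRF3, rose less and with little spread. Untreated libraries held 341, 355 and 350 normalised read counts. LPS libraries held 657, 722 and 664 at 0.5 h, 816, 875 and 841 after 1 h, 866, 987 and 1056 after 2 h, and 1033, 1042 and 1076 after 4 h. No LPS library overlapped the untreated ones, and the means rose at each step although the 1 h and 2 h groups, and the 2 h and 4 h groups, overlapped. The change grew from 0.96 ± 0.10 at 0.5 h (adjusted p = 7.16e-07) to 1.59 ± 0.10 at 4 h (adjusted p = 8.73e-10). Relative to *Tbk1* in the same library, *Ikbke* went from a mean log2 ratio of 0.08 in untreated cells to 1.16 at 0.5 h and 2.14 at 2 h. This ratio does not depend on how libraries are scaled, apart from the added count of 1.

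*Irak2*, which sustains signalling by the MYD88 complex, had reached most of its log2 change at the earliest time. Its counts were 408, 335 and 319 in untreated cells, then 2651, 2448 and 2103 at LPS 0.5 h and 3507, 3153 and 2742 after 4 h. The 1 h and 2 h libraries lay between 2441 and 3005, and neighbouring LPS groups overlapped. The change of 2.76 ± 0.13 at 0.5 h (adjusted p = 1.73e-10) was 87.8% of the 3.14 ± 0.13 seen at 4 h (adjusted p = 1.33e-11). At 0.5 h the other 5 rising genes had reached 54.9% (*Irak3*) to 65.4% (*Myd88*) of their largest log2 change.

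*Myd88*, the adaptor that links TLR4 to the IRAK kinases, rose in 2 steps from a low count. Untreated libraries held 18, 18 and 16 normalised read counts. Counts were 81, 82 and 77 at LPS 0.5 h, 69, 70 and 65 after 1 h, 158, 184 and 190 after 2 h, and 138, 220 and 179 after 4 h. The 0.5 h and 1 h groups did not overlap each other or any other group, and the 2 h and 4 h groups overlapped. The change was 2.15 ± 0.16 at 0.5 h (adjusted p = 4.28e-08), 1.91 ± 0.16 at 1 h, and 3.28 ± 0.16 at 2 h (adjusted p = 1.19e-10). The added count of 1 makes such changes of a low gene somewhat smaller than the ratio of counts.

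*Irak3*, the brake on the MYD88 complex, showed a dip between 2 peaks. Its counts were 250, 232 and 260 in untreated cells and 853, 643 and 616 at LPS 0.5 h. They were 955, 808 and 789 after 1 h, 678, 566 and 529 after 2 h, and 1801, 1543 and 1557 after 4 h. The 2 h libraries were all below the 1 h libraries, and the 4 h libraries stood above all others. The change was 1.77 ± 0.14 at 1 h (adjusted p = 3.06e-08), 1.25 ± 0.14 at 2 h (adjusted p = 1.13e-06) and 2.72 ± 0.14 at 4 h (adjusted p = 1.3e-10). Non-coding genes on the opposite strand overlap *Irak3* (chromosome 10, 120141648 to 120202130, minus strand), and those with the longer overlaps dipped at 2 h as well. *Gm34545*, over 24.1% of the span, changed by 1.71, 1.04 and 2.58 at 1, 2 and 4 h, and *Gm40781*, over 8.24%, by 1.87, 1.38 and 2.75, so the same limit on strand holds here. *Gm38500* overlaps by 541 bases and did not dip, with changes of 0.45, 0.83 and 1.62.

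*Irak4*, the kinase at the head of the cascade, was the only member lowered at all 4 LPS times. Untreated libraries held 147, 145 and 171 normalised read counts. LPS libraries held 72, 111 and 102 at 0.5 h, 35, 52 and 58 after 1 h, 35, 65 and 65 after 2 h, and 45, 64 and 60 after 4 h. No LPS library reached an untreated one, and the 3 later groups overlapped each other. The gene fell by 0.71 in log2 units at 0.5 h (SE 0.26, adjusted p = 0.0297), by 1.68 at 1 h (SE 0.26, adjusted p = 4.29e-05) and by 1.45 at 4 h (adjusted p = 0.000159). The call at 0.5 h was lost without replicate 2 (adjusted p = 0.0848), without replicate 3 (0.151) and under median-of-ratios scaling (0.0913), while the fall at 1, 2 and 4 h exceeded that of the median gene by 1.38, 1.24 and 1.19. With these opposite changes, *Irak3* exceeded *Irak4* by a mean log2 ratio of 0.68 in untreated cells and 4.85 at LPS 4 h, a shift of 4.17 in counts of the same libraries.

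*Irak1*, the partner of IRAK2 in the complex, showed no change that passed the test. Its counts were 71, 73 and 68 in untreated libraries and lay between 58 and 86 in the 12 LPS libraries. The groups overlapped at every time, and the largest change was −0.15 ± 0.15 (F test adjusted p = 0.733). With libraries set to equal totals, *Irak1* was called lower at every LPS time (−0.55 to −0.75), and with median-of-ratios scaling its largest change was 0.29 and not called, so its direction under LPS depends on the scaling. Against *Irak2* in the same library it went from a mean log2 ratio of −2.30 in untreated cells to −5.19 at LPS 0.5 h and −5.60 at 4 h.

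*Ikbkb* and *Chuk*, the catalytic subunits of the IKK complex, moved apart. *Ikbkb* (chromosome 8) held 363, 292 and 361 normalised read counts in untreated cells, 693, 834 and 787 at LPS 0.5 h, 856, 1170 and 1184 after 1 h, 1162, 1559 and 1504 after 2 h, and 1424, 1403 and 1162 after 4 h. All LPS libraries lay above the untreated ones, and the 3 later groups overlapped in part. The change was 1.19 ± 0.16 at 0.5 h (adjusted p = 1.25e-05) and 2.05 ± 0.16 at 2 h (adjusted p = 1.33e-08). *Chuk* (chromosome 19) held 123, 124 and 116 in untreated cells and 84, 77 and 82 at LPS 0.5 h, with no overlap, and returned to 106 to 149 in the 9 later libraries. It fell by 0.57 at 0.5 h (SE 0.13, adjusted p = 0.00205), a call lost under median-of-ratios scaling (adjusted p = 0.0602) and without replicate 2 (0.053). Later changes of *Chuk* were 0.16, 0.07 and −0.07 and were not called. At 1 h *Chuk* was called higher under median-of-ratios scaling (0.42, adjusted p = 0.0177) and lower at equal totals (−0.42, adjusted p = 0.0106). At equal totals it was also called lower at 2 h (−0.58, adjusted p = 0.00101) and 4 h (−0.68, adjusted p = 0.000305). The log2 ratio of *Chuk* to *Ikbkb* within a library shifted from a mean of −1.47 to between −2.96 and −3.51 under LPS, with no overlap with untreated libraries at any time.

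*Map3k7*, which encodes TAK1, changed direction during the course as scaled by the authors. Counts were 373, 441 and 426 in untreated cells, 448, 555 and 590 at LPS 0.5 h, 442, 530 and 522 after 1 h, 361, 363 and 378 after 2 h, and 277, 272 and 313 after 4 h. The 0.5 h and 1 h libraries were above and the 4 h libraries below all untreated ones. The change was 0.36 ± 0.12 at 0.5 h (adjusted p = 0.0247), 0.27 at 1 h (adjusted p = 0.0712, and 0.0225 with replicates as a block), −0.17 at 2 h and −0.52 ± 0.12 at 4 h (adjusted p = 0.00176). At 0.5 h the call was lost without replicate 2 (adjusted p = 0.157) and without replicate 3 (0.206), and the value was −0.16 at equal totals. At 1 h *Map3k7* was called higher with median-of-ratios factors (0.53, adjusted p = 0.00104) and lower at equal totals (−0.31, adjusted p = 0.0411), and at 2 h it was called lower at equal totals (−0.82, adjusted p = 3.64e-05). At 4 h the call was lost without replicate 2 (adjusted p = 0.0808). The fall of 0.88 from 0.5 to 4 h (adjusted p = 1.6e-05), which compares LPS samples with each other, did not depend on these choices.

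**Figure D2:**
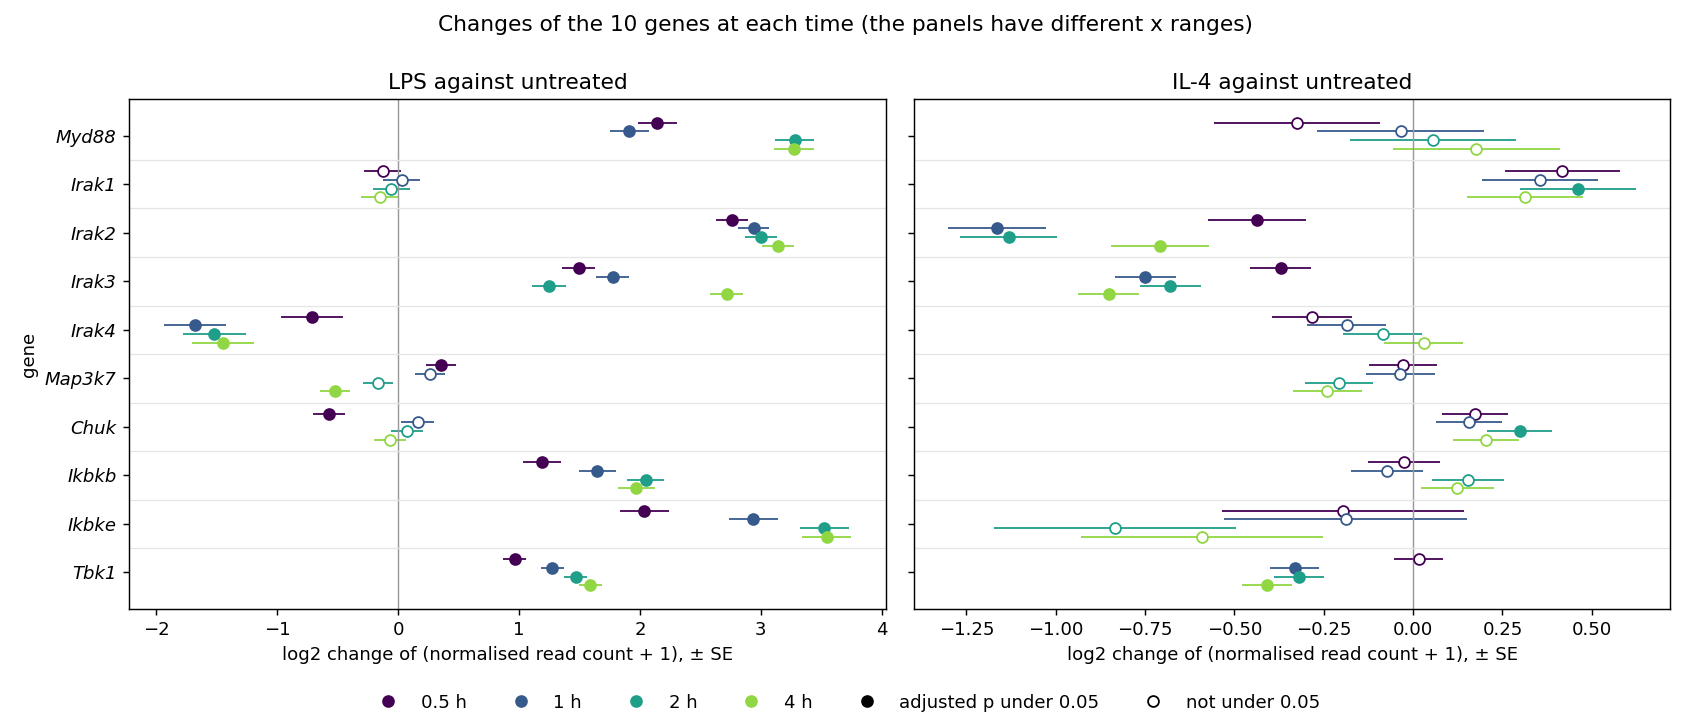
Log2 change of (normalised read count + 1) against untreated on the x axes, with SE bars, for the 10 genes (y axis) at each time of LPS (left) and IL-4 (right), where filled points have an adjusted p under 0.05. Under LPS the values run from −1.68 to 3.55, and under IL-4 from −1.16 to 0.46, so the x ranges differ.

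By time, 9 members were called at LPS 0.5 h (7 higher, 2 lower, with 53.9% of all genes called), 7 at 1 h (6 higher, 1 lower, 63.8%), 7 at 2 h (6 higher, 1 lower, 65.9%) and 8 at 4 h (6 higher, 2 lower, 63.5%). The split depended on the scaling. At equal totals 6 members were higher at every time, with 3 lower at 0.5 h and 4 lower later. With median-of-ratios factors 7 were higher and 0 lower at 0.5 h, while 8 were higher and 1 lower at 1 h. Of all genes called, 18.3% to 23.7% were higher at equal totals over these times. With median-of-ratios factors 48.1% and 48.7% were higher at 0.5 and 1 h. Between 0.5 and 4 h of LPS, 9 members changed (63.0% of all genes), of which *Irak4* and *Map3k7* fell. *Ikbke* rose most over this interval, by 1.51 ± 0.20, followed by *Irak3* with 1.23 ± 0.14 and *Myd88* with 1.13 ± 0.16. *Ikbkb* rose by 0.78 and *Tbk1* by 0.63. The later rise of *Irak2* was 0.38 ± 0.13 (adjusted p = 0.0183), which no longer passed without replicate 2 (0.147), without replicate 3 (0.0632) or under median-of-ratios scaling (0.0536). That of *Chuk*, 0.50 (adjusted p = 0.004), did not pass without replicate 2 (0.077) or 3 (0.0559), and the fall of *Irak4* by 0.74 (adjusted p = 0.0217) did not pass without replicate 2 (0.132) or 3 (0.121).

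In the main fit, which did not use the pairing of replicates, IL-4 lowered 3 of the 10 genes over its course by the F test. These were *Irak2*, *Irak3* and *Tbk1*, and none of the 10 was called higher. All tested genes were called in 40.3% of cases in this comparison, with 19.4% higher and 20.9% lower. The count was 5 with replicates as a block, in which *Ikbke* (adjusted p = 7.59e-06) and *Map3k7* (0.0253) were added. Of all tested genes 53.3% were called with that block. The IL-4 and LPS courses share their untreated samples.

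*Irak2* fell from 408, 335 and 319 normalised read counts in untreated cells to 192, 141 and 142 at IL-4 1 h and 173, 167 and 142 after 2 h. At 0.5 h it held 261, 267 and 252, and at 4 h 245, 213 and 191. All 12 IL-4 libraries lay below all untreated ones, with the lowest values at 1 and 2 h. The gene fell by 0.44 at 0.5 h (SE 0.14, adjusted p = 0.0448), by 1.16 at 1 h (SE 0.14, adjusted p = 2.83e-05), by 1.13 at 2 h and by 0.71 at 4 h (adjusted p = 0.00166). The early call was lost without replicate 2 (adjusted p = 0.26), without replicate 3 (0.16) and under median-of-ratios scaling (0.0707), and that at 4 h without replicate 2 (0.0575). The step from 0.5 to 4 h of −0.27 had an adjusted p of 0.166, and of 0.0272 with replicates as a block.

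*Irak3* fell from 250, 232 and 260 to 187, 198 and 188 at IL-4 0.5 h, to 145, 145 and 150 after 1 h, to 153, 161 and 148 after 2 h and to 121, 140 and 150 after 4 h. No IL-4 library overlapped the untreated ones, and the 1, 2 and 4 h groups overlapped each other in part. The fall was 0.37 at 0.5 h (SE 0.09, adjusted p = 0.00832) and reached 0.85 at 4 h (SE 0.09, adjusted p = 6.5e-06). The first of these was lost without replicate 2 (adjusted p = 0.0913) or 3 (0.169). The antisense *Gm34545* was lower too, by −1.09 at 4 h (adjusted p = 0.000111), and *Gm40781* by −0.59 (adjusted p = 0.0101). *Irak2* and *Irak3*, the members with opposed roles in the MYD88 complex, shared a direction under either stimulus.

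*Tbk1* stayed at 339, 351 and 368 at IL-4 0.5 h, and was at 296, 270 and 266 after 1 h, 298, 275 and 266 after 2 h, and 267, 268 and 252 after 4 h. The later libraries all lay below the untreated 341, 355 and 350. It fell by 0.33 at 1 h (SE 0.07, adjusted p = 0.00342), by 0.32 at 2 h (adjusted p = 0.00348) and by 0.41 at 4 h (adjusted p = 0.00061). The calls at 1 and 2 h were lost without replicate 2 (adjusted p = 0.147 and 0.119) or 3 (0.107 and 0.104). Over the course the F test gave an adjusted p of 0.00036, of 0.063 without replicate 2 and of 0.0679 without replicate 3.

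*Ikbke* at IL-4 0.5 h held 517, 248 and 260 normalised read counts, 443, 278 and 275 after 1 h, 312, 160 and 176 after 2 h, and 351, 209 and 200 after 4 h. Replicate 1 was again the highest in each group, and every IL-4 group overlapped the untreated libraries. Without a block the change at 2 h was −0.84 ± 0.34 (adjusted p = 0.0873) and at 4 h −0.59 ± 0.34 (adjusted p = 0.24). Within replicates 1, 2 and 3 the change at 2 h was −0.67, −1.03 and −0.80, and with replicates as a block the adjusted p was 2.46e-06 at 2 h and 7.85e-05 at 4 h. Without replicate 1 the change at 2 h was −0.92 (adjusted p = 1.19e-05), and at 4 h it was −0.63 (adjusted p = 0.000172). The antisense *Gm28913* had a value of −0.97 at 2 h (adjusted p = 0.032), whereas *Gm51644* had one of 0.58 (adjusted p = 0.0423).

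Of the other 6 members, *Irak1* and *Chuk* were called at IL-4 2 h alone. *Irak1* held 117, 83 and 96 normalised read counts at 2 h and between 79 and 122 over the 12 IL-4 libraries, all above the untreated 71, 73 and 68. Its rise of 0.46 ± 0.16 at 2 h (adjusted p = 0.0492) was lost without replicate 1 (adjusted p = 0.0876), 2 (0.0969) or 3 (0.272). The call was also lost with median-of-ratios factors (0.0853), at equal totals (0.0684), without the filter (0.111) and with a pseudocount of 8 (0.0512). *Chuk* held 164, 145 and 139 after 2 h, and its rise of 0.30 ± 0.09 (adjusted p = 0.0266) was likewise lost without replicate 1 (0.0804), 2 (0.162) or 3 (0.131). It did not pass with median-of-ratios factors (0.0776), at equal totals (0.055) or in a fit of all 27 samples (0.0618). *Map3k7* held 336, 356 and 355 after 4 h, all below untreated, a change of −0.24 ± 0.10 with an adjusted p of 0.0864, and of 0.0179 with replicates as a block. *Myd88* stayed between 12 and 28, *Irak4* between 122 and 170 and *Ikbkb* between 303 and 401 in the IL-4 libraries. None of them was called at any time in the main fit. *Irak4* held 122 to 129 at 0.5 h and 130 to 144 at 1 h, all below the untreated 145 to 171. At equal totals it was called at 0.5 h (−0.41, adjusted p = 0.0152), where the median gene was at −0.15. The F test over the course then passed for *Irak4* (adjusted p = 0.0133) and *Ikbkb* (0.0392). The 0.5 to 4 h step was also called then for *Irak4* (0.45, adjusted p = 0.00558), *Ikbkb* (0.29, 0.0383) and *Myd88* (0.64, 0.0476).

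By time, 2 members were called at IL-4 0.5 h (16.3% of all genes), 3 at 1 h (21.0%), 5 at 2 h (27.6%) and 3 at 4 h (25.9%). The count at 4 h was 5 with replicates as a block, and those at 0.5 h and 2 h were 0 and 2 without replicate 2 and also without replicate 3. The share of all genes called moved as well, to 35.4% at 4 h with the block. Without replicates 2 and 3 it was 5.56% and 6.32% at 0.5 h, and 13.6% and 13.4% at 2 h. From 0.5 to 4 h of IL-4, 2 members changed (27.3% of all genes), *Irak3* by −0.48 (adjusted p = 0.000935) and *Tbk1* by −0.43 (adjusted p = 0.000497). For *Tbk1* this had an adjusted p of 0.0509 without replicate 3. With the block the count was 6 (37.4% of all genes), adding *Irak2* (0.0272), *Irak4* (0.0299), *Map3k7* (0.032) and *Ikbke* (0.00229).

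**Figure D3:**
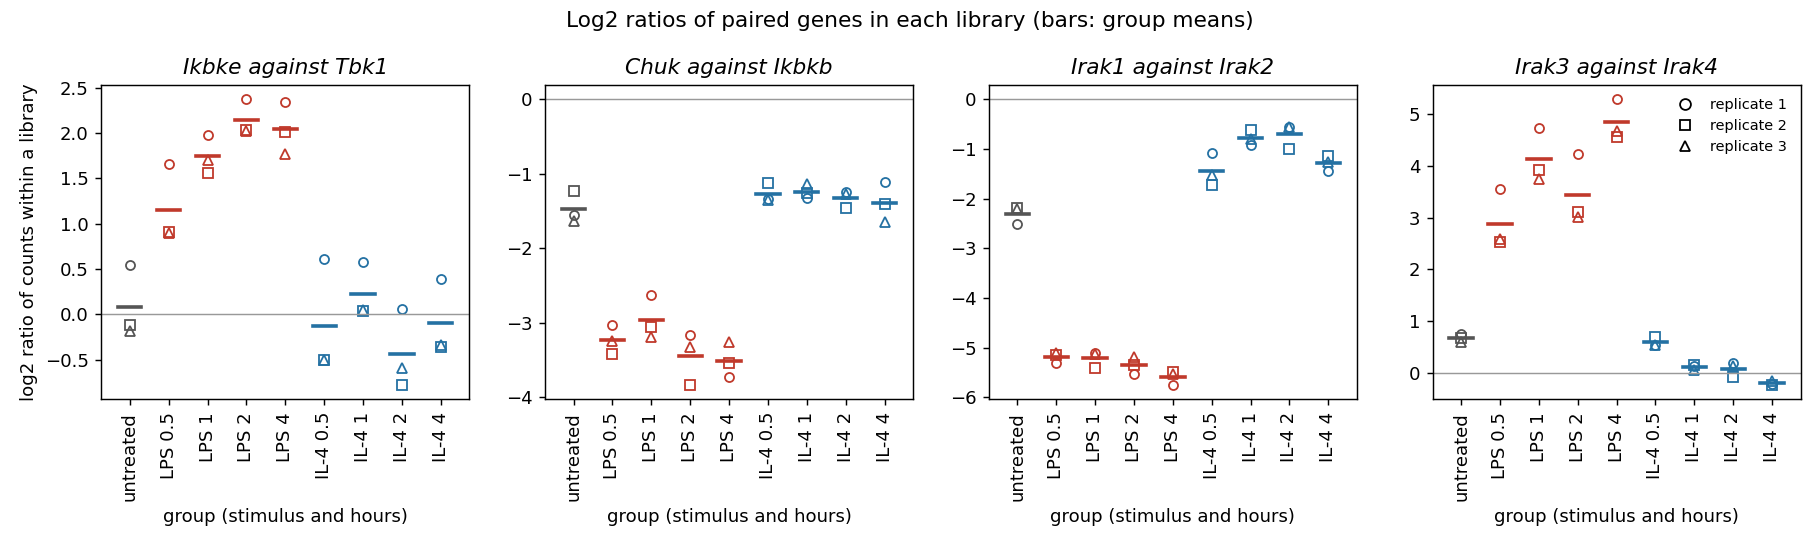
Log2 ratio of the normalised read counts (plus 1) of paired genes within each library (y axes) in the 9 groups (x axes, hours after each stimulus), with each symbol a replicate and bars for group means. *Ikbke* against *Tbk1* and *Irak3* against *Irak4* shift up under LPS, *Chuk* against *Ikbkb* and *Irak1* against *Irak2* shift down, and *Irak1* against *Irak2* shifts up under IL-4.

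Ratios within a library showed how the balance between related members moved without regard to library scaling. *Irak1* against *Irak2* went from a mean log2 ratio of −2.30 in untreated cells to −0.78 at IL-4 1 h and −0.71 at 2 h, the opposite direction to LPS, with no overlap with untreated libraries at any IL-4 time. *Irak3* against *Irak4* went from 0.68 to 0.12, 0.09 and −0.20 at IL-4 1, 2 and 4 h, again with no overlap. The ratios *Ikbke* to *Tbk1* and *Chuk* to *Ikbkb* overlapped the untreated libraries at every IL-4 time. *Irak2* against *Irak3* went from 0.51 in untreated cells to 1.78 at LPS 0.5 h, 2.26 at 2 h and 0.94 at 4 h, each without overlap. The pairs were chosen by function and the ratios are given without a test.

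Set directly against each other at the same time, LPS and IL-4 samples differed for 9 members at 0.5 h (7 higher under LPS, with 53.8% of all genes called), 8 at 1 h (7 higher, 64.5%), 8 at 2 h (6 higher, 68.6%) and 10 at 4 h (6 higher, 68.0%). The largest difference was that of *Ikbke*, 4.36 ± 0.29 at 2 h (adjusted p = 2.74e-12), and that of *Irak2* was 4.13 ± 0.13 at 2 h (adjusted p = 6.28e-18). *Irak3* differed by 3.57 ± 0.12 at 4 h and *Myd88* by 3.22 ± 0.20 at 2 h. For *Tbk1* the difference grew from 0.95 ± 0.08 at 0.5 h to 2.00 ± 0.08 at 4 h. *Irak4* was lower under LPS by −1.50 at 1 h (adjusted p = 1.53e-06) and by −1.48 at 4 h, while its −0.43 at 0.5 h had an adjusted p of 0.0926, and of 0.0218 with replicates as a block. The differences of *Irak1* (−0.55, −0.52 and −0.47 at 0.5, 2 and 4 h) lost their call under median-of-ratios scaling (adjusted p = 0.137, 0.187 and 0.343) and without replicate 3 (0.0735, 0.0522 and 0.097). They also lost it without replicate 1 at 2 h (0.0699) and without replicate 2 at 4 h (0.0757). *Map3k7* (0.38, 0.30 and −0.28 at 0.5, 1 and 4 h) and *Chuk* (−0.28 at 4 h) differed by amounts that changed with the scaling: at equal totals *Map3k7* was at −0.001 and −0.17 at 0.5 and 1 h, and with median-of-ratios factors *Map3k7* and *Chuk* were at 0.002 and 0.007 at 4 h. *Map3k7* at 2 h and *Chuk* at 1 h, not called here, were called higher with median-of-ratios factors (0.31 and 0.28) and lower at equal totals (−0.59 and −0.47). Without replicate 2 and without replicate 3, the adjusted p of *Map3k7* was 0.107 and 0.0552 for the 0.5 h difference, 0.246 and 0.139 for that at 1 h, and 0.273 and 0.0754 for that at 4 h. That of *Chuk* at 4 h was 0.356, 0.12 and 0.05 without replicates 1, 2 and 3. The difference of *Chuk* at 0.5 h, −0.75 ± 0.11 (adjusted p = 5.93e-06), kept its call under these choices.

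Levels of different genes can be compared only per length. Per kb of gene span, *Ikbke* had the highest level in untreated cells, 15.1 ± 4.16 normalised read counts (SD, n = 3), followed by *Tbk1* with 8.64 ± 0.18. The values of *Ikbke* may hold reads of the antisense *Gm28913* and *Gm51644*, which cannot be told apart from its own. *Ikbkb*, *Irak1*, *Map3k7*, *Irak2* and *Irak4* lay between 6.26 and 7.15, with SDs of 0.25 to 0.85. *Myd88*, *Irak3* and *Chuk* were lowest, at 4.24, 4.09 and 3.54. At LPS 4 h the order was *Ikbke* (175 ± 31.8), *Irak2* (55.4 ± 6.77), *Myd88* (43.8 ± 10), then *Ikbkb*, *Irak3* and *Tbk1* between 26 and 28.1, with *Irak4* lowest at 2.28 ± 0.41. At IL-4 4 h *Ikbke* was at 10.1 ± 3.39, *Irak1* second at 8.83 ± 0.86, and *Irak3* lowest at 2.27 ± 0.24. Whether introns were counted is not stated. Per kb of transcript the order differed. In untreated cells *Ikbke* (118 ± 32.4) and *Tbk1* (115 ± 2.34) were then close, and *Irak1* and *Myd88* were the lowest, at 17.9 and 8.95.

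Among the 7567 genes compared, those with group means most like those of the 3 members with the widest range are given as a description, since all points share their 9 groups and libraries. For *Ikbke* they were *Spaca6* (Pearson's r = 0.993), *Rap2c* (0.993) and *Gbp2* (0.993), a guanylate-binding protein gene whose mean went from 17 in untreated cells to 2470 at LPS 4 h. For *Irak2* they were *Art2a* (0.998), *Arap1* (0.994) and *Marcks* (0.992). For *Myd88* they were *Stard7* (0.991), *Zfp407* (0.990) and *Cxcl11* (0.990), a chemokine gene that was listed at 0 in untreated cells and averaged 556 at LPS 4 h.

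**Figure D4:**
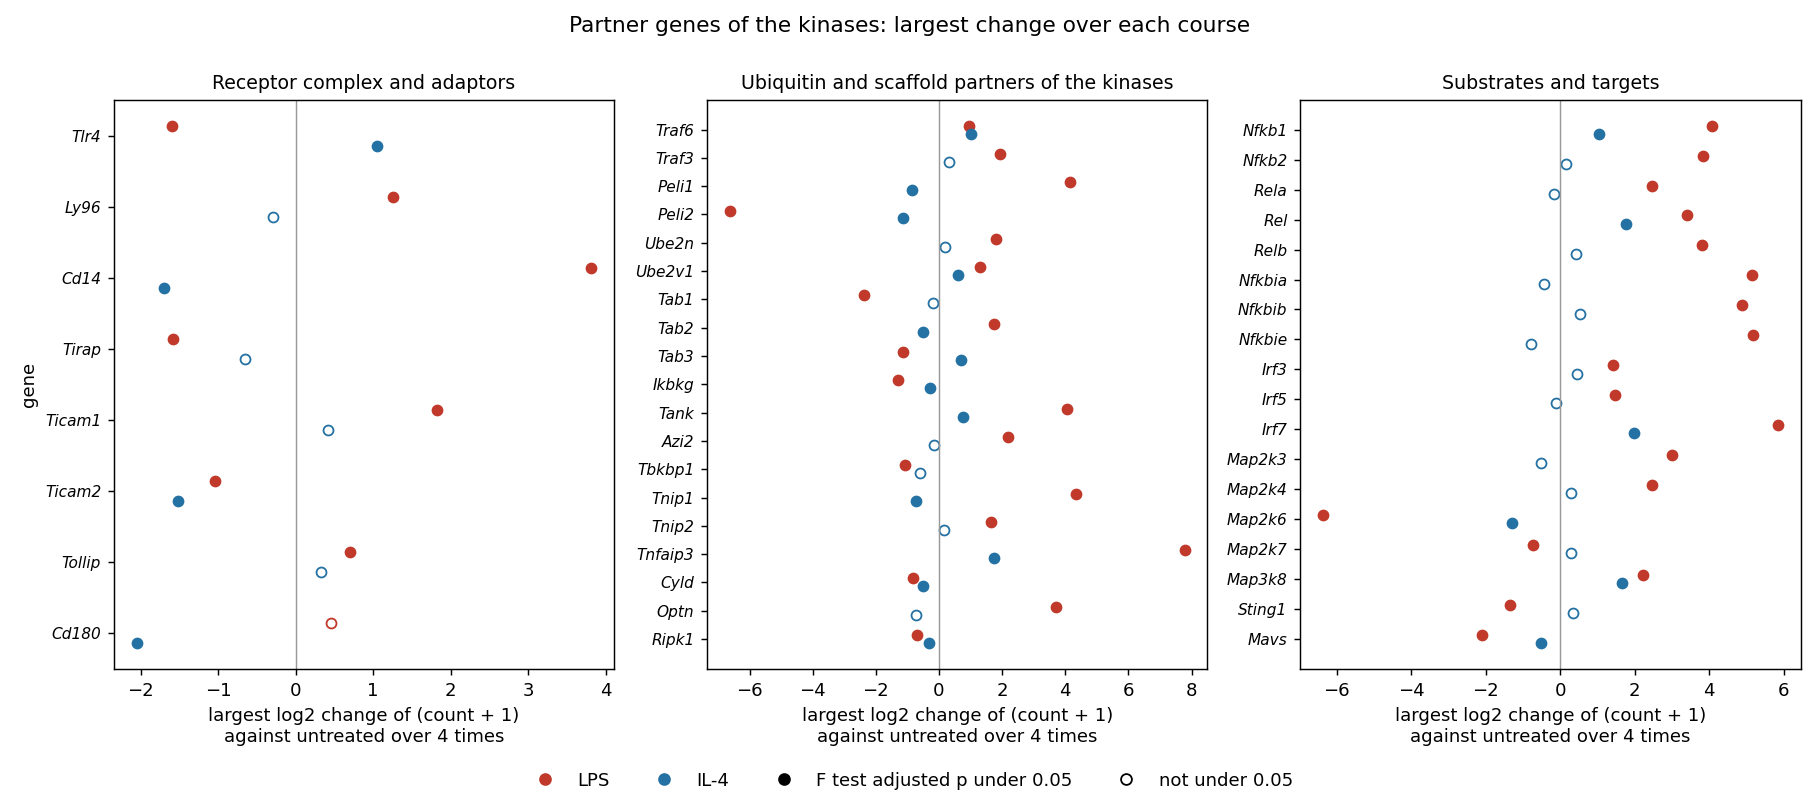
Largest log2 change of (normalised read count + 1) against untreated over 4 times on the x axes for the tested partner genes of the kinases (y axes) in 3 lists, with red for LPS and blue for IL-4 and filled points where the F test gave an adjusted p under 0.05. Under LPS, 14 of 18 substrates and targets, 12 of 19 ubiquitin and scaffold partners and 4 of 8 receptor components and adaptors rose, beside 32.9% of all tested genes, and under IL-4 most points lie nearer 0.

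The genes upstream of the kinases moved in mixed directions under LPS. In the list of receptor components and adaptors, 8 of 10 were tested. By the sign of the largest change 4 rose, 3 fell and 1 did not pass, beside 32.9% higher and 54.7% lower of all tested genes. The split was 7 rises and 1 fall under median-of-ratios scaling, 2 rises and 5 falls at equal totals, and 3 rises and 4 falls without replicate 2. Of all genes called, 45.8%, 23.2% and 38.5% were higher in these settings, in the same order. *Cd14*, the coreceptor that hands LPS to TLR4, went from a mean of 24.7 to 358 normalised read counts at 0.5 h (log2 change 3.81 ± 0.18, F test adjusted p = 1.24e-10). *Ticam1*, which encodes the adaptor TRIF that feeds TBK1, changed by 1.82 ± 0.22 at 1 h and *Ly96*, the LPS-binding partner of TLR4, by 1.25 ± 0.17 at 2 h. *Tlr4* itself fell from 349 to 115 at 2 h (−1.60 ± 0.24). *Ticam2*, an adaptor of the TRIF branch, changed by −1.04 ± 0.18 at 0.5 h. Its untreated libraries held 96, 103 and 123 normalised read counts, and its LPS 1 h libraries 226, 202 and 176. The libraries at 2 h and 4 h lay between 100 and 140. *Tollip*, an IRAK-binding regulator, rose by 0.71 ± 0.17, *Tirap*, the adaptor that brings MYD88 to TLR4, fell to a mean of 13.3 (−1.58 ± 0.26), and *Cd180* had an adjusted p of 0.0787. Under IL-4, 1 of the 8 rose and 3 fell. *Tlr4* changed by 1.04 ± 0.23 at 0.5 h and *Cd180*, a TLR4 homologue, by −2.05 ± 0.19. *Ticam2* changed by −1.51 ± 0.21 at 0.5 h and held 103, 115 and 124 normalised read counts at 4 h. *Cd14*, at 24.7 and 7.67 normalised read counts, changed by −1.69 ± 0.35. Of all tested genes 19.4% rose and 20.9% fell under IL-4. The rise of *Tlr4* was lost without the filter on low values, without replicate 2 and without replicate 3, and either of these replicates left 2 falls when omitted. Of all tested genes 15.9%, 16.1% and 15.6% were called in these settings, against 40.3% in the main fit.

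Among the ubiquitin and scaffold partners, 12 of 19 tested genes rose and 7 fell under LPS, beside 32.9% and 54.7% of all tested genes, with a median largest change of 1.66 (−1.0 over all tested genes). *Tnfaip3*, which encodes the deubiquitinating enzyme A20, rose from a mean of 21 to 4691 at 0.5 h (7.78 ± 0.21), *Tnip1*, its binding partner, by 4.34 ± 0.12, and *Peli1*, an E3 ligase acting on IRAK proteins, by 4.17 ± 0.21. *Peli2*, another member of the Pellino family, fell from 672 to 6.67 at 4 h (−6.63 ± 0.31). *Tab1*, a TAK1-binding subunit, fell by 2.39 (SE 0.19) and *Ikbkg*, the regulatory subunit NEMO of the IKK complex, by 1.30 (SE 0.12), both at 1 h. Under IL-4, 5 rose, 7 fell and 7 did not pass, beside 19.4% and 20.9% of all tested genes. The calls dropped to 2 rises and 3 falls without replicate 2 and to 3 and 3 without replicate 3, and the rises to 2 without the filter on low values. The share of all tested genes called dropped as well, from 40.3% to 16.1%, 15.6% and 15.9%. *Traf6*, the E3 ligase between the IRAKs and TAK1, changed by 1.02 ± 0.18, *Tank*, a scaffold of TBK1 and IKKε, by 0.76 ± 0.10 and *Tnfaip3* by 1.75 ± 0.42, all at 0.5 h, and the other rises were *Tab3* (0.71 ± 0.16) and *Ube2v1* (0.61 ± 0.15), while *Peli2* changed by −1.15 ± 0.13, *Peli1* by −0.85 ± 0.09 and *Tnip1* by −0.73 ± 0.16.

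Of the 18 substrates and targets, 14 rose and 4 fell under LPS, beside the same 32.9% and 54.7% of all tested genes, with a median largest change of 2.73. Without replicate 3 the falls called were 2, where 72.3% of all tested genes were called. *Irf7*, an interferon regulatory factor phosphorylated by TBK1 and IKKε, went from 22 to 1337 at 4 h (5.84 ± 0.25). The IκB genes *Nfkbie* and *Nfkbia*, whose products the IKK complex marks for destruction, changed by 5.18 ± 0.17 and 5.14 ± 0.18. *Map2k6*, a p38 activator downstream of TAK1, had a mean of 165 in untreated cells and a value of 1 in each library at 4 h, and *Mavs* and *Sting1*, adaptors that engage TBK1, changed by −2.11 ± 0.28 and −1.35 ± 0.38. The other fall was that of *Map2k7*, −0.72 ± 0.20. Under IL-4, 4 rose, 2 fell and 12 did not pass: *Irf7* changed by 1.97 ± 0.22, *Rel*, an NF-κB subunit gene, by 1.78 ± 0.10, *Map3k8*, a kinase freed when IKK acts on p105, by 1.67 ± 0.09, *Nfkb1*, which encodes p105, by 1.05 ± 0.09, *Map2k6* by −1.30 ± 0.17 and *Mavs* by −0.50 ± 0.15. These 4 rises and 2 falls stand beside 19.4% and 20.9% of all tested genes. Neither fall was called without replicate 2 and 1 was without replicate 3, while the rises numbered 4 in both cases and 6 without replicate 1. Of all tested genes 16.1%, 15.6% and 47.1% were called without replicates 2, 3 and 1.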

How the data were processed

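The deposited table gives whole-number normalised read counts per gene, treated here as a score and not as raw counts because the authors had scaled them. Per the study's methods, single-end Smart-seq2 reads of chromatin-associated RNA were aligned by the authors to mm10 with TopHat2 2.1.1, reads with several hits or in blacklisted regions were removed (bedtools 2.29.2), reads were counted per RefSeq gene of GRCm38.p6, and libraries were scaled on invariant genes. Depths, and the use of strand and introns in counting, are not given in the sources used here.

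The 13901 genes reaching 10 normalised read counts in 3 or more samples entered limma (version 3.58.1, R 4.3.3) on the log2(value + 1) scale, with a trended prior variance, p-values adjusted by Benjamini-Hochberg over these genes and a threshold of 0.05. Each course was fitted with its 12 stimulated and 3 untreated samples, with a moderated F test over 4 times and a contrast per time. LPS and IL-4 were compared in a fit of all 27 samples. Fold changes on this scale understate those of low genes. The fits were tested on simulated data. A count test laid down for raw counts was not run, nor was the impulse model of the study.

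Replicate numbers were taken from the labels. Deviations from group means over 6827 genes correlated between same-numbered samples in every one of 36 pairs for each number. The correlations were 0.43 to 0.85, 0.16 to 0.53 and 0.28 to 0.68 for replicates 1, 2 and 3. The numbers were therefore taken to pair the samples, but the main fits had no replicate term and did not use this pairing. A fit with the replicate as a block was an alternative. The other alternatives were a pseudocount of 8, no filter, a minimum mean of 50, median-of-ratios scaling, equal totals, leaving out each replicate number, averaging replicates 2 and 3, and a fit of all samples.

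The members and gene lists were chosen with earlier results of these data known. All members are named. From each partner list, up to 3 largest rises and 3 largest falls per stimulus are named if called and at a mean of at least 50 in the higher group. *Tirap*, *Tollip*, *Map2k7*, *Tab3*, *Ube2v1*, *Nfkb1* and, under LPS, *Cd180* and, under IL-4, *Cd14* were named after their values were seen.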

Additional observations from a re-analysis of the deposited data

Results flagged for a closer look

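These results were flagged because the effect of a stimulus on a member differed between its 0.5 h and 4 h samples in a direct test of that difference by limma (values are log2 changes from 0.5 to 4 h). Under LPS the effect grew for *Ikbke* (1.51), *Irak3* (1.23), *Myd88* (1.13), *Ikbkb* (0.78), *Tbk1* (0.63) and *Irak2* (0.38), with adjusted p from 1.42e-06 to 0.0183. *Chuk*, lowered at 0.5 h, differed by 0.50 (adjusted p = 0.004). The change was −0.88 for *Map3k7* (adjusted p = 1.6e-05) and −0.74 for *Irak4* (adjusted p = 0.0217). Under IL-4 the effect became more negative for *Irak3* (−0.48, adjusted p = 0.000935) and *Tbk1* (−0.43, adjusted p = 0.000497).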

How the results depend on the processing

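The member results examined under 11 alternatives were a part of all member results. They were every called one, every course test, every LPS time against untreated and some further ones picked by name. Of these 127, 102 were called, and 77 of the called ones kept their direction and call under each alternative run. Counts of called members moved by over 1.5 times only in IL-4 comparisons. Over the IL-4 course the count of 3 was 5 at equal totals, 5 with replicates as a block and 2 to 5 when a replicate number was left out. All tested genes were called in 45.6%, 53.3% and 15.6% to 47.1% of cases in these settings, in the same order. At IL-4 0.5 h the count of 2 was 1 without the filter, 1 with median-of-ratios factors, 0 with replicates 2 and 3 averaged and 0 to 3 on leaving out a replicate number. The shares of all tested genes were 6.38%, 16.2%, 6.97% and 5.56% to 21.2%. At IL-4 2 h the count of 5 was 3 at equal totals, 2 with replicates averaged and 2 to 5 on leaving out a replicate number. Beside these stood 27.6%, 15.3% and 13.4% to 33.1% of all tested genes. At IL-4 4 h the count of 3 was 5 with the block and 2 to 5 on leaving out a replicate number, and for the step from IL-4 0.5 to 4 h the count of 2 was 5 at equal totals, 6 with the block and 1 to 6 on leaving out a replicate number. Shares of all tested genes were 35.4% and 11.4% to 31.4% at 4 h, and 33.6%, 37.4% and 10.7% to 35.5% for the step. The replicate block added the calls named beside the results, *Irak1* at IL-4 0.5 h (adjusted p = 0.0331) and *Map3k7* at IL-4 2 h (adjusted p = 0.0362), and changed no other call of a member.

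Among the 127 there were 24 reversals, of which 18 came with another scaling and 6 on leaving out a replicate number. Results outside this set, none of them called in the main fit, changed sign as well and are not in that count. Examples at equal totals are *Tbk1* at IL-4 0.5 h (0.016 to −0.11) and the step of *Irak1* from IL-4 0.5 to 4 h (−0.10 to 0.036). With median-of-ratios factors the largest LPS change was 0.29 for *Irak1*, 0.60 for *Map3k7* and 0.42 for *Chuk*, *Irak1* was at 0.11, 0.18 and 0.079 at 0.5, 2 and 4 h, *Map3k7* at 0.073 at 2 h and *Chuk* at 0.16 at 4 h, and the LPS against IL-4 differences at 4 h were 0.002 (*Map3k7*) and 0.007 (*Chuk*). At equal totals *Map3k7* was at −0.16 at LPS 0.5 h and −0.31 at 1 h, *Irak1* at −0.55 at 1 h, *Chuk* at −0.42 at 1 h and −0.58 at 2 h, *Map3k7* between LPS and IL-4 at −0.001 and −0.17 at 0.5 and 1 h, and the largest IL-4 change of *Ikbkb* at −0.18. On leaving out a replicate number, *Irak1* at LPS 1 h ran from −0.094 to 0.15, and at 2 h from −0.12 to 0.011, *Chuk* at 2 h ran from −0.070 to 0.21, and at 4 h from −0.13 to 0.001, and the largest IL-4 change from −0.40 to 0.31 for *Myd88* and from −0.17 to 0.28 for *Ikbkb*. None of these leave-one-out values was called.

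Of all genes called over the LPS course, 37.6% were higher, against 45.8% with median-of-ratios factors and 23.2% at equal totals. Values carry no depth, so the precision of low values such as those of *Myd88* in untreated cells is known only from their replicate spread.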
